A study of Danio rerio with 2 samples.

Results

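Expression of 7 transcription factor genes grouped here as telencephalon transcription factors, *foxg1a*, *emx2*, *emx3*, *tbr1b*, *eomesa*, *lhx8a* and *bhlhe22*, was measured in single cells of the zebrafish larval brain. The genes were chosen by name, and their unique molecular identifiers (UMIs, counts of captured transcripts) were read from both libraries for 7 of the 31323 gene symbols in the files, which hold 32057 gene identifiers. Their identifiers were ENSDARG00000070769 (*foxg1a*), ENSDARG00000039701 (*emx2*), ENSDARG00000020417 (*emx3*), ENSDARG00000004712 (*tbr1b*), ENSDARG00000006640 (*eomesa*), ENSDARG00000002330 (*lhx8a*) and ENSDARG00000058039 (*bhlhe22*).

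The telencephalon, the front part of the brain, is divided into the pallium, where most neurons release glutamate, and the subpallium, where many neurons release GABA. In mouse, the Emx homeobox factors and the T-box factors Tbr1 and Eomes are associated with the pallium, whereas the Dlx factors and Lhx8 are associated with the subpallium. The same factors also act elsewhere. In mouse, Eomes is also used in a subset of retinal ganglion cells, and Bhlhe22 in retinal amacrine and bipolar cells.

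Whole brains of larvae at 3 days post fertilization (dpf) were dissociated and captured in droplets, and 2 libraries were sequenced. The sibling library came from larvae labelled wt, and the *rb1* mutant library came from rb1smu2/smu2 larvae, homozygous for an allele of the retinoblastoma gene *rb1*. The number of larvae pooled was not given in the sources used here. With 1 library for each genotype there were no replicates, so no test between genotypes was possible, and all 95% intervals cover counting error only. The intervals of levels and of their ratios treat every UMI as independent. They are therefore too narrow where few cells hold many UMIs of a gene. A difference between libraries was read by its size, with a ratio of at least 2 in either direction as the rule.

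The sibling library held 8557 barcodes (48852464 UMIs) and the mutant library 8799 (47291418 UMIs). Filtering left 7539 and 7873 cells at a median depth of 3315 and 3600 UMIs, and 15 of their barcodes occurred in both libraries. *rb1* itself had 174 UMIs in the sibling cells and 176 in the mutant cells, and a 3′ count does not read the allele. Each cell was placed in the first of 22 marker gates it met, none of which used any of the 7 genes. Brain neurons, defined by *elavl3* or several other neuronal genes, numbered 3064 and 3394 (sibling and mutant, the order used throughout), and progenitors with radial glia numbered 486 and 745. Although the labels give the cell type as neuron, retinal cells (1379 and 1719) and non-neural cells (1581 and 1081) were also present. The libraries differed in skin keratin transcripts, with *krt4* in 24.3% of sibling and 8.34% of mutant brain neurons. The epidermis gate held 581 sibling and 58 mutant cells, of which 25.8% and 3.45% also had an *elavl3* UMI. The part of these transcripts in the results was not tested. Without the epidermis gate, an alternative chosen after seeing the data, all 78 values of the members that were recomputed stayed within set limits. For levels, ratios and shares the limit was counting error, and for counts of members it was a fixed factor. The 78 values did not include *bhlhe22* in non-neural cells, which turned direction.

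Where the UMIs of each gene lay was described first. *tbr1b* was the gene most restricted to brain neurons, with 91.2% of its 364 sibling UMIs and 89.4% of its 340 mutant UMIs there. *eomesa* (86.4% of 450 and 85.3% of 252) and *emx3* (87.9% of 173 and 79.4% of 180) also lay mainly in brain neurons, which held 34.3% and 36.4% of the UMIs of all genes. For *foxg1a*, brain neurons held 55.8% of 710 UMIs and 51.5% of 889. Retinal cells held a further 20.3% and 28.0% of them, and progenitors with radial glia held 14.2% and 14.6%. For *emx2*, brain neurons held 58.6% of 1017 UMIs and 55.3% of 880, and non-neural cells held 28.2% in each library. Non-neural cells held 31.0% and 22.0% of the UMIs of all genes, so this share was not above that level in the sibling library. *lhx8a* was divided between brain neurons (46.7% of 214 and 38.2% of 173) and non-neural cells (48.1% and 52.6%). Its mutant share in brain neurons was near their 36.4% of all UMIs. *bhlhe22* had the most UMIs of the 7 genes (2272 and 2357). Retinal cells held 44.5% and 47.3% of them, more than brain neurons (40.4% and 42.6%). Of the UMIs of all genes, retinal cells held only 17.0% and 22.5%. As a description only, 5 of the 7 genes had most of their UMIs in brain neurons in each library. The share of all genes that did so was not computed. The number of the 7 genes was 3 in the mutant library with all deposited barcodes. It was 3 in each library when brain neurons with a UMI of a list of retinal amacrine genes were left out. The UMIs of those cells stayed in the total, so a share could only fall. That alternative was chosen after seeing the data.

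**Figure D1:**
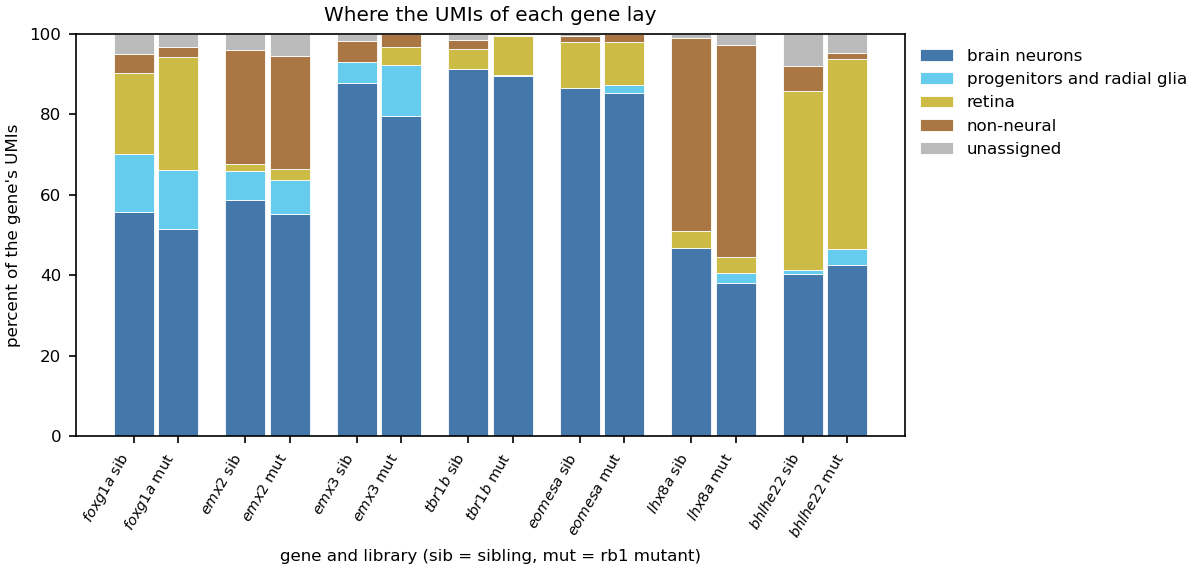
Stacked bars give the percent of each gene's UMIs (vertical axis) that fell in brain neurons, progenitors and radial glia, retina, non-neural and unassigned cells, for each gene and library (horizontal axis). The blue brain neuron part is tallest for *tbr1b* (91.2% in the sibling library), and the non-neural part is largest for *lhx8a* (48.1%).

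All 7 genes were sparse. A UMI was found in 162 sibling and 160 mutant brain neurons for *foxg1a* (5.29% and 4.71%), in 186 and 190 for *emx2* (6.07% and 5.60%), in 64 and 64 for *emx3* (2.09% and 1.89%), in 98 and 82 for *tbr1b* (3.20% and 2.42%), in 81 and 59 for *eomesa* (2.64% and 1.74%), in 16 and 10 for *lhx8a* (0.522% and 0.295%) and in 247 of 3064 and 319 of 3394 for *bhlhe22*. Detection also depended on depth. After thinning to 1000 UMIs, which left 2499 sibling and 2775 mutant brain neurons and dropped shallower ones, the shares ranged from 0.480% for *lhx8a* to 5.36% for *bhlhe22* (sibling), and from 0.288% to 5.37% for the same genes (mutant). Free RNA in the droplets was judged from red blood cells, muscle, endothelium and microglia, a set narrowed after its values were seen, with 86 sibling cells (median 9392 UMIs) and 85 mutant cells (median 9044), against medians of 3166 and 3263.5 in brain neurons. In the sibling reference cells *foxg1a* and *emx2* were found in 1 cell each (1.16%) and the other 5 genes in none, which allows a share of up to 3.49%. In the mutant reference cells *emx2* was found in 3 cells (3.53%), *eomesa* in 2 (2.35%), *tbr1b*, *lhx8a* and *bhlhe22* in 1 each (1.18%) and *foxg1a* and *emx3* in none, which allows up to 3.53%. The shares of *lhx8a* in all brain neurons, and of *eomesa* in all mutant brain neurons, were therefore not above this reference, and at 86 cells the reference does not separate sibling shares under 3.49% from free RNA. The intervals of the mutant reference reached 3.53% for *emx3*, 6.38% for *tbr1b* and 9.97% for *emx2*, so their shares in all brain neurons were not separated from it either. In the sibling reference the intervals of *foxg1a* and *emx2* reached 6.31%. Their shares in all sibling brain neurons (5.29% and 6.07%) were thus also not separated from it. Shares do not allow for depth, whereas levels in CPM (defined below) do. In sibling cells *foxg1a* and *emx2* each had 1.24 CPM in the reference (up to 6.89), against 40.1 and 60.4 in brain neurons. Mutant *emx2* had 5.16 CPM (up to 13.2) against 41.9, and *tbr1b* 1.29 (up to 7.19) against 26.2. Mutant *emx3* had 0 CPM (up to 3.87) against 12.3. These levels were above the reference beyond counting error, but that of mutant *lhx8a* (3.87, up to 11.3, against 5.68) was not. Mutant *eomesa* had 6.45 CPM in the reference (up to 15.0), from 5 UMIs in 2 cells, against 18.5 in brain neurons. The 5 genes without a UMI in the sibling reference had 0 CPM (up to 3.71). The lowest of these genes in sibling brain neurons was *lhx8a*, with 10.1 CPM. The UMIs of *eomesa* and *lhx8a* were also unevenly spread over neuron types. *eomesa* was found in 25 of 137 sibling and 12 of 103 mutant neurons of the neurod6 gate and in none of 206 and 216 neurons of the tal1/gata gate, and *lhx8a* in 7 of 128 and 6 of 122 neurons of the dlx gate and in none of the tal1/gata gate.

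**Figure D2:**
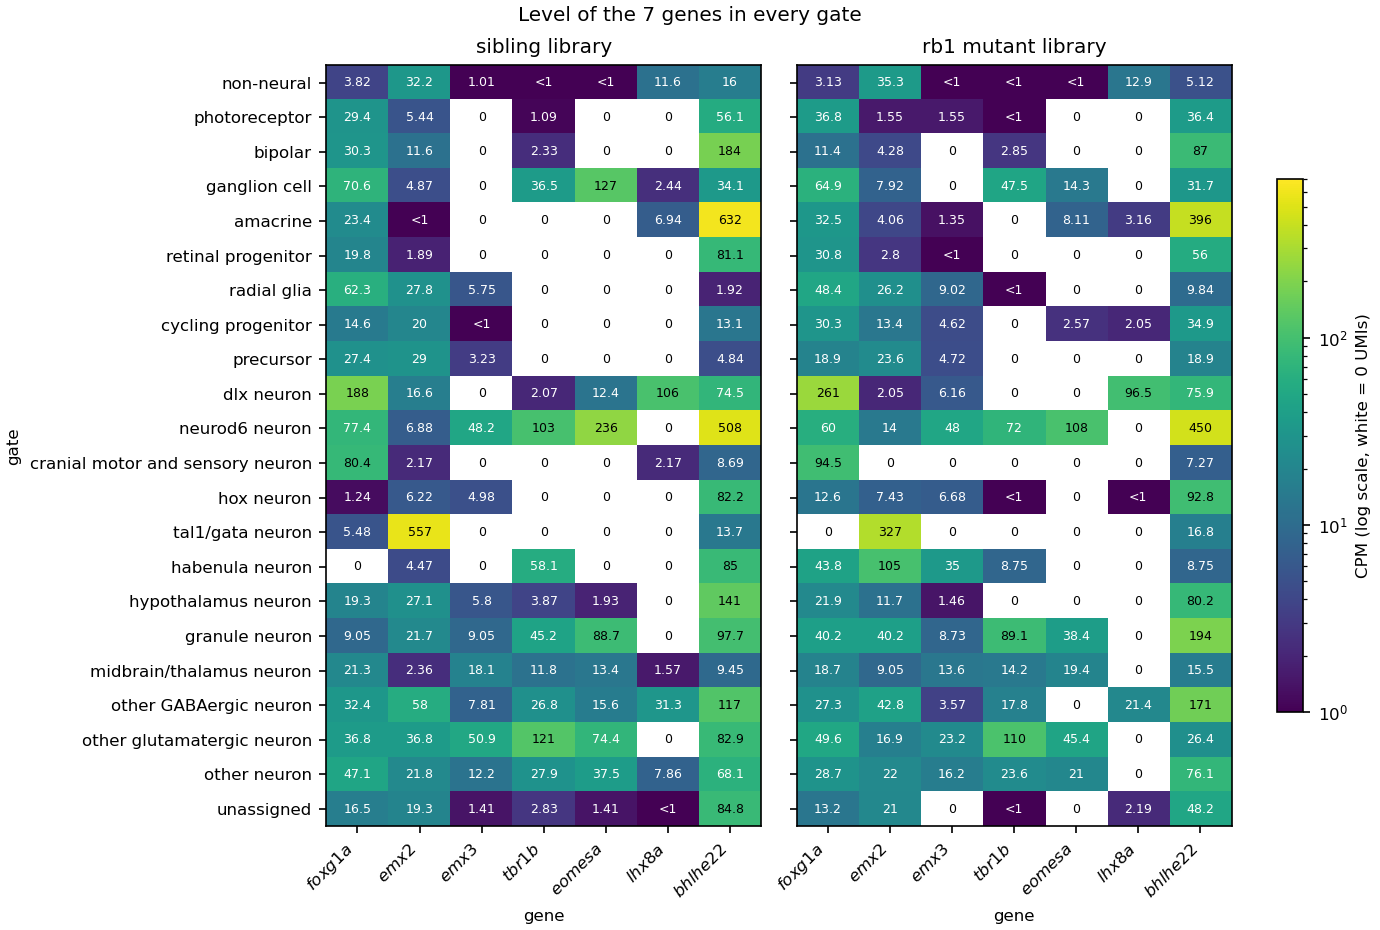
Heat map of the level of each gene (columns) in every gate (rows) in the sibling (left) and *rb1* mutant (right) libraries, in CPM (UMIs of the gene per 1000000 UMIs of the gate) on a logarithmic colour scale with 0 UMIs in white. The brightest fields of the brain neuron gates are *emx2* in the tal1/gata gate (557 and 327 CPM) and *bhlhe22* in the neurod6 gate (508 and 450 CPM). In the retina, *bhlhe22* in amacrine cells has 632 and 396 CPM.

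*foxg1a* had its highest level in the dlx gate, neurons with UMIs of at least 2 of 6 listed *dlx* and *arxa* genes, where it reached 188 CPM in the sibling library (151.6 to 231) and 261 CPM in the mutant library (217 to 310.2). This was 2.34 times (1.58 to 3.53) and 2.76 times (1.98 to 3.89) the next gate, cranial motor and sensory neurons (80.4 and 94.5 CPM). The next gates of the sibling library, the neurod6 gate (77.4 CPM), retinal ganglion cells (70.6 CPM) and radial glia (62.3 CPM), each did not differ beyond counting error from the gate before it. Against all other brain neurons, *foxg1a* was 5.80 times (4.54 to 7.35) higher in the dlx gate of the sibling library and 8.77 times (7.09 to 10.8) higher in that of the mutant library. In the neurod6 gate, neurons with UMIs of at least 2 of *neurod6a*, *neurod6b*, *palmdb* and *tac3b*, it was 2.05 times (1.47 to 2.80) higher than in other brain neurons of the sibling library and 1.56 times (1.04 to 2.26) higher in the mutant library.

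The *foxg1a*-positive neurons fell into separate sets by the genes detected with it. In the sibling library 46 of 162 had a UMI of a listed *dlx* gene or *arxa* and none of *tbr1b*, *eomesa* or *emx3*, and 50 had the reverse. Only 2 had UMIs of both kinds, and 64 had neither. In the mutant library the numbers were 44, 55, 1 and 60 of 160. The 2 sets differed in transmitter genes. A UMI of *gad1b* or *gad2*, which encode the enzymes that make GABA, was found in 25 of the 46 neurons with *dlx* or *arxa* (54.3%, 39.0 to 69.1) and in only 2 of the 50 with pallial genes (0.488% to 13.7%). A UMI of *slc17a6b*, which encodes a vesicular glutamate transporter, was found in none of the 46, which allows up to 6.52%, and in 16 of the 50 (32.0%, 19.5 to 46.7). The mutant library showed the same split, with a *gad* UMI in 20 of 44 and 2 of 55, and an *slc17a6b* UMI in 2 of 44 and 13 of 55. *foxg1a*-negative neurons of the same kinds had similar values in the sibling library, with a *gad* UMI in 75 of 138 neurons with *dlx* or *arxa* and *slc17a6b* in 35 of 100 neurons with pallial genes. Over all *foxg1a*-positive neurons the split was not seen, as *slc17a6b* was found in 30 of 162, against 579 of 2902 *foxg1a*-negative neurons. Among genes detected in 20% or more of the *foxg1a*-positive sibling neurons, the 5 with the largest ratio of CPM in positive over negative neurons, after adding 5 CPM to both, were *tbr1b* (5.83, and 13.3 in the mutant library), *dlx5a* (4.77 and 3.81), *cpne2*, *zgc:122979* and *zbtb18*. By profile over gates, the genes most like *foxg1a* were *ecpas* and *gmpr2*, with a Pearson r of 0.608 and 0.587 over 40 points (20 gates in each of 2 libraries), which share libraries and depth.

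*emx2* and *emx3* are homologs of the *Drosophila* gene *empty spiracles*, and their highest levels lay in different gates. *emx2* peaked in the tal1/gata gate, neurons with UMIs of at least 2 of *tal1*, *gata2a*, *gata3*, *sox14* and *zfpm2b*, factors known from GABAergic neurons of the midbrain and hindbrain. There it was found in 97 of 206 sibling neurons (407 UMIs, 557 CPM, 504 to 614) and in 87 of 216 mutant neurons (291 UMIs, 327 CPM, 290.4 to 367). These levels were 26.9 times (22.6 to 32.2) and 17.9 times (14.9 to 21.6) those in all other brain neurons. *emx2* was the only one of the 7 genes at least 2-fold higher in that gate, where 1.45% of 6968 genes (sibling) and 1.31% of 7110 genes (mutant) were. *emx3*, *tbr1b*, *eomesa* and *lhx8a* had no UMI in that gate in either library. The tal1/gata gate was 9.60 times (7.18 to 13.1) the next gate of the sibling library, other GABAergic neurons (58.0 CPM), and 3.11 times (1.75 to 6.09) that of the mutant library, habenula neurons, where 12 UMIs came from 2 of 26 cells. Of the 186 *emx2*-positive sibling neurons, 117 had a UMI of the tal1/gata list (62.9%, against 12.6% of *emx2*-negative neurons), 81 of *otx1* or *otx2b* (43.5% against 6.01%) and 74 of *pax7a* or *pax7b* (39.8% against 4.69%). The Otx and Pax7 factors are known from midbrain patterning. Only 8 had a *foxg1a* UMI (4.30%), as did 5.35% of *emx2*-negative neurons. The mutant library gave 121 of 190 for the tal1/gata list, 74 for *otx1* or *otx2b* and 55 for *pax7a* or *pax7b*. It gave 15 for *foxg1a* (7.89%), there above the 4.53% of *emx2*-negative neurons. By these markers most *emx2*-positive neurons did not bear the name telencephalon, and the gene is described here by its gate.

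The genes most enriched in *emx2*-positive sibling neurons were *tal1* (9.82, and 6.57 in the mutant library), *pax7b* (9.22 and 6.18), *zfpm2b* (8.39 and 6.96), *gata3* (7.34 and 6.10) and *otx1* (6.94 and 6.86). By profile over gates, *pax7b* and *pax7a* were the most alike (r = 0.715 and 0.686). Outside the brain cells, *emx2* was found in 103 of 895 sibling cells of the connective tissue gate (11.5%, 9.49 to 13.8) and in 114 of 913 mutant cells (12.5%, 10.4 to 14.8), at 45.8 and 42.4 CPM. Of these 103 cells, 96 had a UMI of the collagen gene *col1a2* (93.2%, against 89.3% of *emx2*-negative cells of the gate). As *col1a2* is on the list of that gate, this share was largely set by the gate. A UMI of neuronal *elavl3* was found in 2 of the 103, against 3.79% of the *emx2*-negative cells, so it was rare in both. *foxg1a*, at 2.59 and 3.31 CPM in the same gate, was detected in 1.12% and 1.42% of the cells.

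*emx3*, which in zebrafish is expressed in the dorsal telencephalon, had the fewest UMIs of the pallial genes. Its highest levels in the sibling library were in other glutamatergic neurons (50.9 CPM, 38.2 to 66.4) and the neurod6 gate (48.2 CPM, 32.0 to 69.6), which did not differ beyond counting error, and both were above midbrain and thalamus neurons (18.1 CPM). In the mutant library the neurod6 gate stood first (48.0 CPM), and other glutamatergic neurons had 23.2 CPM. Against other brain neurons, *emx3* was 3.61 times (2.30 to 5.47) and 4.49 times (2.77 to 7.0) higher in the neurod6 gate. It had no UMI in the dlx gate of the sibling library, which allows up to 6.21 CPM, and 3 UMIs in that of the mutant library. The genes most enriched in *emx3*-positive sibling neurons were 2 other members, *eomesa* (12.9, and 25.8 in the mutant library) and *tbr1b* (10.6 and 12), followed by *postnb*, *rprma* and *camk1b*. By profile over gates *grm2b* and *draxin* were the most alike (r = 0.711 and 0.710). *emx1*, another gene of the family, was found in 5 of 64 *emx3*-positive sibling neurons and in 8 of 64 mutant ones, and *emx2* in 8 of 64 in each library (12.5%), against 5.93% and 5.47% of *emx3*-negative neurons. After thinning *emx2* and *emx3* shared no neuron, where 0.930 and 0.769 were expected.

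*tbr1b* encodes a T-box factor whose mouse counterpart Tbr1 acts in postmitotic glutamatergic neurons of the cortex. In the sibling library *tbr1b* had its highest levels in other glutamatergic neurons (121 CPM, 100.6 to 143) and the neurod6 gate (103 CPM). In the mutant library these gates had 109.8 CPM (89.7 to 133) and 72.0 CPM. Habenula neurons (58.1 CPM) and granule neurons (45.2 CPM) followed in the sibling library, and granule neurons stood second in the mutant library (89.1 CPM). None of these neighbours in the order differed beyond counting error. In retinal ganglion cells *tbr1b* had 15 UMIs in 4 of 108 sibling cells (36.5 CPM) and 30 UMIs in 8 of 150 mutant cells (47.5 CPM). The neurod6 gate was 3.53 times (2.62 to 4.68) and 2.99 times (2.05 to 4.24) above other brain neurons. *eomesa* was the gene most enriched in *tbr1b*-positive sibling neurons (26.2, and 38.8 in the mutant library), before *emx3* (18.8 and 25.0), *nrgna*, *cpne2* and *rasd1*. The 2 T-box genes were also the closest over gates, with r = 0.887 between *tbr1b* and *eomesa*, followed by *neurod6a* (r = 0.742 with *tbr1b* and 0.736 with *eomesa*). As *neurod6a* is on the list of the neurod6 gate, its r partly restates the level of both genes in that gate.

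*eomesa*, the counterpart of Eomes (also called Tbr2), had its highest level in the neurod6 gate, with 137 UMIs in 25 of 137 sibling neurons (236 CPM, 198 to 279) and 54 UMIs in 12 of 103 mutant neurons (108.0 CPM, 81.1 to 141). These levels were 8.69 times (7.0 to 10.7) and 7.46 times (5.38 to 10.2) those in other brain neurons. Of the 7 genes, 5 were at least 2-fold higher in the neurod6 gate of the sibling library and 4 of the 6 with enough UMIs in that of the mutant library (*emx3*, *tbr1b*, *eomesa* and *bhlhe22* in both, and *foxg1a* in the sibling library), against 1.89% and 2.87% of all genes. This gate rested on few markers, since 129 of its 137 sibling neurons and 102 of its 103 mutant neurons had exactly the 2 list genes required. With 1 more marker required, *eomesa* had 424 CPM in the sibling neurons left and no UMI in the mutant ones. These values do not compare the libraries, since hardly any neurons of the gate had more than 2 list genes.

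*eomesa* was also found in retinal ganglion cells, granule neurons (88.7 CPM) and other glutamatergic neurons (74.4 CPM) of the sibling library, and neighbours in this order did not differ beyond counting error. Among mutant gates, other glutamatergic neurons (45.4 CPM) and granule neurons (38.4 CPM) came next. Ganglion cells had 52 UMIs in 9 of 108 cells (127 CPM, 94.6 to 166) among sibling cells and 9 UMIs in 2 of 150 cells (14.3 CPM, 6.52 to 27.1) among mutant cells. None of the 9 sibling cells had a *tbr1b* UMI, which allows up to 33.3%. A UMI of *rbpms2b* was found in 8 of them and in 97 of 99 *eomesa*-negative cells of the gate. As *rbpms2b* is on the list of the ganglion cell gate, these shares were largely set by the gate. In brain neurons, in contrast, *tbr1b* was found in 43 of 81 *eomesa*-positive sibling neurons (53.1%) and in 38 of 59 mutant ones (64.4%). A UMI of *neurod6a* or *neurod6b* was found in 47 of the 81 (58.0%, against 9.82% of *eomesa*-negative neurons) and one of *tbr1a*, the paralog of *tbr1b*, in 17 (21.0% against 0.0335%). The mutant library gave 29 and 5 of 59. *eomesb*, the paralog of *eomesa*, was found in none of the 81 and 1 of the 59.

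*lhx8a* encodes a LIM homeobox factor, known in mouse with Lhx6 from the ventral subpallium and from the mesenchyme of the jaws. Few neurons carried it, and 13 of the 16 sibling and 9 of the 10 mutant ones had at least 2 UMIs. The 16 positive sibling neurons had 100 UMIs (mean 6.25, at most 19) and the 10 positive mutant neurons had 66 (mean 6.60, at most 21). In the dlx gate it had 51 UMIs in 7 sibling neurons (106 CPM, 78.6 to 139) and 47 UMIs in 6 mutant neurons (96.5 CPM, 70.9 to 128). This was 20.2 times (13.4 to 30.6) and 56.5 times (32.6 to 102) the level in other brain neurons. *foxg1a* and *lhx8a* were the only 2 of the 7 genes at least 2-fold higher in the dlx gate of the sibling library, where 2.97% of all genes were (3.61% in the mutant library, where *lhx8a* had under 100 UMIs in brain neurons and was left out of that share). Other GABAergic neurons came second (31.3 and 21.4 CPM), and *lhx8a* had no UMI in the neurod6 gate or in other glutamatergic neurons of either library.

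*lhx6*, its partner in mouse, was found in 10 of the 16 *lhx8a*-positive sibling neurons and 4 of the 10 mutant ones, against 0.820% and 0.739% of *lhx8a*-negative neurons. A listed *dlx* gene or *arxa* was found in 9 of 16 and 9 of 10, *foxg1a* in 7 of 16 and 1 of 10, and *nkx2.1* in 2 of 16 and 4 of 10. No *lhx8a*-positive neuron in either library had a UMI of the cholinergic genes *chata*, *slc18a3a* or *slc5a7a*, which 16 and 10 cells leave possible in up to 18.8% and 30% of such neurons. Over gates, *lhx6* and *dlx2a* had the profiles most like *lhx8a* (r = 0.804 and 0.778). As *dlx2a* is on the list of the dlx gate, its r partly restates the level of *lhx8a* in that gate. The other site was again the connective tissue gate, where *lhx8a* was found in 56 of 895 sibling cells (6.26%, 4.76 to 8.05) and 53 of 913 mutant cells (5.81%, 4.38 to 7.52), with 82 and 87 UMIs. *emx2* was found in 9 of these 56 cells and 7 of these 53, against 11.2% and 12.4% of the other cells of the gate, and *elavl3* in 2 and 1.

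*bhlhe22* encodes a basic helix-loop-helix factor known in mouse from cortical projection neurons and retinal interneurons. It had 2 peaks. In amacrine cells of the retina it was found in 113 of 251 sibling cells (632 CPM, 587 to 679) and 200 of 451 mutant cells (396 CPM, 370.5 to 423). In the neurod6 gate it was found in 48 of 137 sibling neurons (508 CPM, 451 to 569) and 37 of 103 mutant neurons (450.1 CPM, 393 to 513). Amacrine cells were 1.24 times (1.09 to 1.43) above the neurod6 gate in the sibling library, and the order was the other way in the mutant library, where the ratio of the neurod6 gate to amacrine cells was 1.14 (0.977 to 1.32). Both were well above the third gate, bipolar cells in the sibling library (184 CPM) and granule neurons in the mutant library (194 CPM). Against other brain neurons, *bhlhe22* was 7.57 times (6.57 to 8.71) and 6.42 times (5.51 to 7.45) higher in the neurod6 gate.

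*bhlhe22* was also detected in brain neurons that carried few other members. Of 247 positive sibling neurons, 137 had neither a UMI of *tbr1b*, *eomesa* or *emx3* nor one of the amacrine list (*tfap2a*, *tfap2b*, *tfap2c*, *pax10*, *pax6a*, *pax6b*). A UMI of that list, below the number that the amacrine gate asks for, was found in 75 of the 247 and in 584 of 2817 *bhlhe22*-negative sibling neurons, and *pax6a* and *pax6b* are also brain genes, so retinal neurons among them cannot be told apart from brain neurons. The 35 neurons with pallial genes and no amacrine-list UMI had *slc17a6b* in 9 cells and a *gad* gene in 1, whereas the 71 with an amacrine-list UMI only had *slc17a6b* in 6 and a *gad* gene in 18. In the mutant library the numbers were 7 and 1 of 21, and 5 and 22 of 115. A *gad* gene was not particular to the amacrine-list set. It was also found in 43 of the 137 sibling neurons with neither kind (31.4%). Of such mutant neurons, 37 of 179 had one (20.7%). Among *bhlhe22*-negative neurons with an amacrine-list UMI the shares were 22.3% and 10.8%. The genes most enriched in *bhlhe22*-positive sibling neurons were *bhlhe23* (12.5, and 4.65 in the mutant library), *prdm8b* (7.58 and 5.73), *zbtb18* (5.56 and 5.62), *neurod6a* (5.48 and 4.80) and *neurod2* (4.46 and 7.79). By profile over gates *prdm8b* and *drap1* were the most alike (r = 0.796 and 0.703).

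Co-detection with transmitter genes over all brain neurons separated the members. In the sibling library *slc17a6b* was found in 34.7% (25.4 to 45.0) of *tbr1b*-positive neurons against 19.4% of negative ones, in 33.3% (23.2 to 44.7) of *eomesa*-positive against 19.5%, and in 35.9% (24.3 to 48.9) of *emx3*-positive against 19.5%. A *gad* gene was found in 5.1%, 6.17% and 4.69% of the same cells, against 18.2%, 18.1% and 18.1% of negative ones. At full depth the *slc17a6b* share was thus higher and the *gad* share lower for these 3 genes, although positive cells were deeper and the *slc17a6b* ratios did not reach 2-fold. The directions were the reverse for *emx2*, with *slc17a6b* in 9.68% against 20.5% and a *gad* gene in 34.9% (28.1 to 42.3) against 16.7%. *foxg1a* lay between, with a *gad* gene in 22.2% against 17.5%. *bhlhe22*-positive neurons had *slc17a6b* in 30 of 247 cells against 20.6% and a *gad* gene in 25.1% against 17.1%. For *lhx8a*, 6 of 16 neurons had a *gad* gene and 1 of 16 had *slc17a6b*. In the free RNA reference *slc17a6b* was found in 1 of 86 sibling and 1 of 85 mutant cells and *gad2* in 1 and 3.

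In the mutant library both transmitter markers were rarer. *slc17a6b* was found in 29.3% of *tbr1b*-positive neurons against 13.7%, in 22.0% of *eomesa*-positive against 13.9%, in 15.6% of *emx3*-positive against 14.1% and in 5.79% of *emx2*-positive against 14.6%. A *gad* gene was found in 2.44% of *tbr1b*-positive neurons against 13.5%, in 1.69% of *eomesa*-positive against 13.4%, in 4.69% of *emx3*-positive against 13.4% and in 26.3% of *emx2*-positive against 12.5%. For *lhx8a*, 5 of 10 neurons had a *gad* gene and none had *slc17a6b*. At full depth *tbr1b*, *eomesa* and *emx3* therefore had the higher *slc17a6b* and lower *gad* share in both libraries. The *slc17a6b* difference of *emx3* was small in the mutant library. For *emx2* both directions were the reverse in both libraries.

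With a 2-fold difference as the rule, 1 of the 6 genes with at least 20 positive neurons passed for *slc17a6b* in the sibling library (*emx2*, lower) and 2 in the mutant library (*emx2*, lower, and *tbr1b*, higher), where 5.05% and 5.91% of all genes were at least 2-fold higher and 4.96% and 4.33% at least 2-fold lower. For the *gad* genes 4 of 6 passed in each library (*emx2* higher, *emx3*, *tbr1b* and *eomesa* lower), where 2.19% and 3.16% of all genes were higher and 6.99% and 6.25% lower. Positive cells were deeper than negative ones, for example with a median of 4640.5 against 3113.5 UMIs for *tbr1b* in the sibling library, so the shares were also taken after thinning. At 1000 UMIs *tbr1b* kept *slc17a6b* in 23.1% against 10.4%, and the difference shrank for *eomesa* (11.5% against 10.6%) and turned for *emx3* (2 of 23 cells, 8.70% against 10.7%). For *emx2* neither sibling call held at equal depth, with *slc17a6b* in 8.91% against 10.7% and a *gad* gene in 20.8% against 12.0%. Its mutant *slc17a6b* call was also lost (3 of 79 cells against 6.68%), and its *gad* share stayed past 2-fold (13.9% against 6.64%). For the other 3 genes the mutant thinned *slc17a6b* shares were 13.2% against 6.50%, 19.4% against 6.45% and 11.1% against 6.55%. The lower *gad* share kept its direction after thinning in the sibling library, at 3.85% (0.469 to 13.2) against 12.5% for *tbr1b* and for *eomesa* and 4.35% against 12.4% for *emx3*, but the intervals reached the values of negative cells. In the mutant library 0 of 38, 0 of 31 and 1 of 27 thinned cells had a *gad* UMI, against 6.94%, 6.92% and 6.88%, which so few cells cannot separate. A second glutamate transporter gene raised the level at full depth, and its shares were not taken after thinning. *slc17a6a* or *slc17a6b* was found in 56.1% of *tbr1b*-positive sibling neurons (against 23.4%), 50.0% of *emx3*-positive (against 23.9%) and 49.4% of *eomesa*-positive ones (against 23.8%). Mutant shares for the same genes were 48.8% (against 17.4%), 34.4% (against 17.9%) and 39.0% (against 17.8%).

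**Figure D3:**
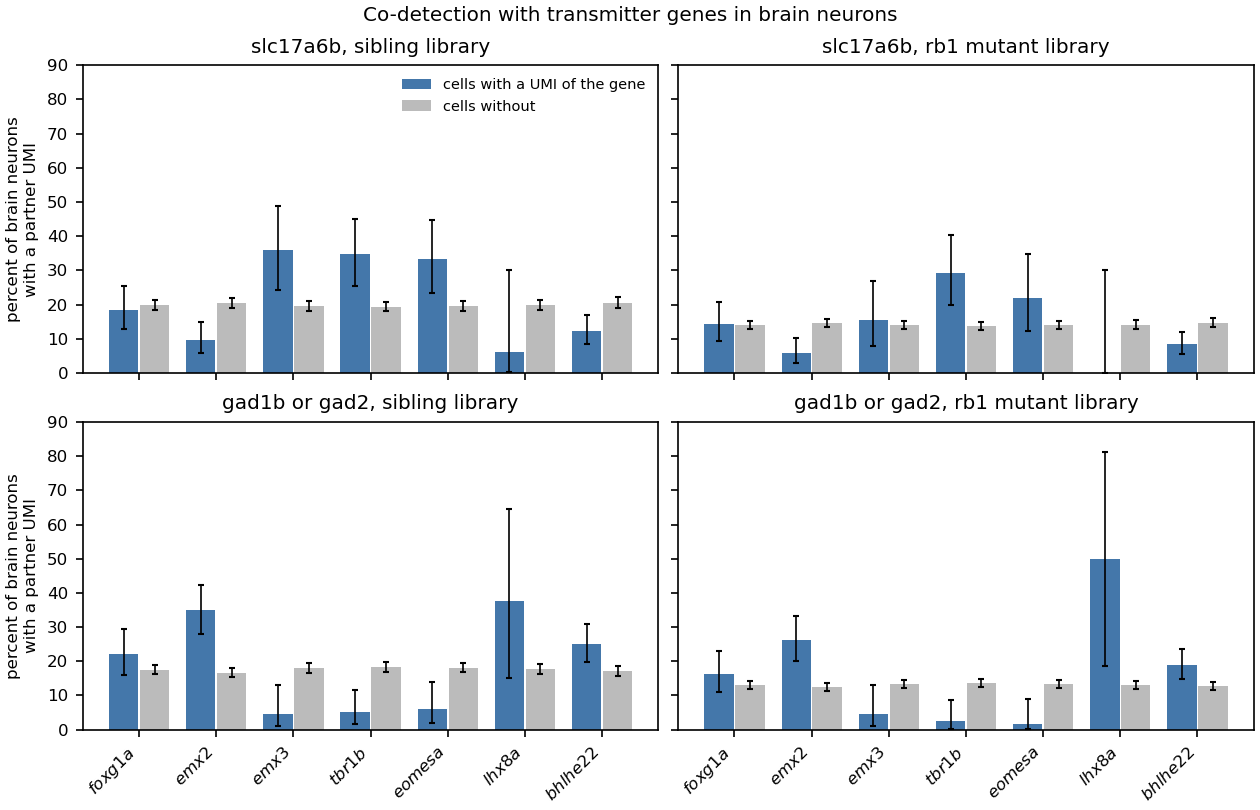
Bars give the percent of brain neurons with a UMI of *slc17a6b* (top) or of *gad1b* or *gad2* (bottom), among cells with a UMI of each gene (blue) and cells without (grey), in the sibling (left) and mutant (right) libraries, with exact 95% binomial intervals. *tbr1b* stands above its grey bar for *slc17a6b* (34.7% against 19.4% in the sibling library) and below it for the *gad* genes (5.1% against 18.2%), and *emx2* shows the opposite.

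The 7 genes were also compared with each other in the same cells. No member was found in 2426 sibling and 2706 mutant brain neurons, 1 member in 511 and 576, 2 in 66 and 57, 3 in 36 and 32, 4 in 22 and 17, and 5 in 3 and 6. *tbr1b* and *eomesa* shared 43 sibling neurons, where independent detection would give 2.59, and 38 mutant neurons, where it would give 1.43. *emx3* shared 30 neurons with *tbr1b* in each library (expected 2.05 and 1.55) and 29 with *eomesa* in each (1.69 and 1.11). At full depth *foxg1a* joined this set, sharing 40 and 41 neurons with *tbr1b* (5.18 and 3.87), 29 and 28 with *eomesa* (4.28 and 2.78) and 25 and 30 with *emx3* (3.38 and 3.02). The set most often seen differed between libraries. It was *foxg1a* with *tbr1b*, *eomesa* and *bhlhe22* in 11 sibling neurons, and *foxg1a* with *tbr1b* and no other member in 11 mutant neurons.

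*lhx8a* shared no neuron with *emx3*, *tbr1b* or *eomesa* in either library, where at most 0.512 were expected for a pair, so these zeros are not distinguishable from independence at this number of cells. *lhx8a* and *foxg1a* shared 7 sibling neurons (expected 0.846) and 1 mutant neuron (0.471). *emx2* and *bhlhe22* shared 8 neurons in each library, fewer than the 15.0 and 17.9 expected. Deeper cells show more of every gene, which raises all pairs together. In cells thinned to 1000 UMIs, *tbr1b* and *eomesa* still shared 11 sibling and 9 mutant neurons, where 1.08 and 0.425 were expected. *foxg1a* then shared 9 and 13 neurons with *tbr1b* (1.35 and 1.12 expected) and 7 and 5 with *eomesa* (1.35 and 0.916), but with *emx3* only 1 sibling neuron (0.598) against 6 mutant ones (0.798).

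**Figure D4:**
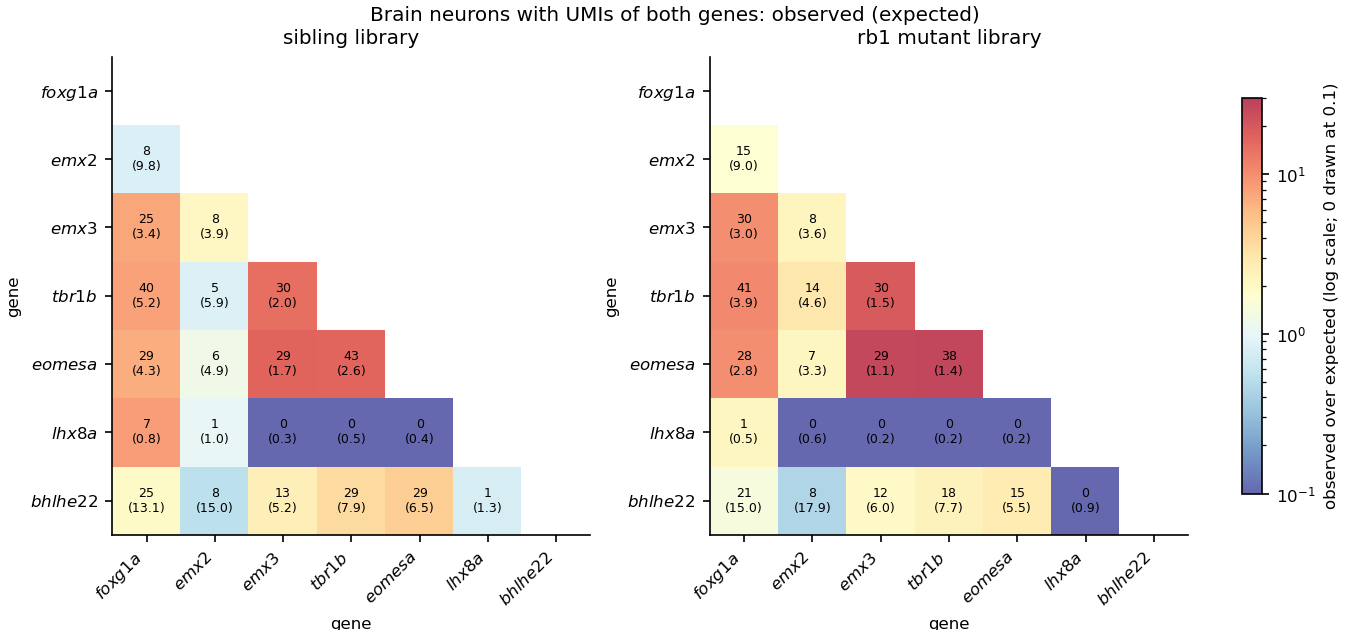
Each field gives the number of brain neurons with UMIs of both genes and, in parentheses, the number expected if the genes were detected independently, for the sibling (left) and mutant (right) libraries, coloured by observed over expected on a logarithmic scale. *tbr1b* with *eomesa* shows 43 sibling and 38 mutant neurons.

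Progenitors with radial glia were deeper than brain neurons, with medians of 5111.5 sibling and 4222 mutant UMIs. *foxg1a* was at nearly the same level in these cells (34.1 and 34.2 CPM) as in brain neurons (40.1 and 39.4 CPM), with a ratio of 0.850 (0.676 to 1.06) and 0.868 (0.709 to 1.06). It was found in 23 of 172 sibling and 17 of 242 mutant radial glia. Among *foxg1a*-positive sibling progenitors and radial glia, 44 of 45 had a UMI of *fabp7a*, a radial glia gene, against 83.4% of *foxg1a*-negative cells, and in the mutant library 40 of 51 had one, against 71.5%. As *fabp7a* is on the list of the radial glia gate, these shares depend on how many of the cells came from that gate. *emx2* was lower in progenitors with radial glia than in neurons (24.7 and 19.2 CPM, 0.408 and 0.458 of the neuron level), and *emx3* had 9 and 23 UMIs there (3.04 and 6.05 CPM). *tbr1b*, *eomesa* and *lhx8a* had no UMI in the 486 sibling cells, which allows up to 1.01 CPM. Neurons were thus at least 33.2-fold higher for *tbr1b*, 38.9-fold for *eomesa* and 10.0-fold for *lhx8a*, against a floor of 3 UMIs over the group. In the 745 mutant cells these genes had 1, 5 and 4 UMIs. *bhlhe22* had 22 UMIs in sibling progenitors with radial glia (7.43 CPM) and 92 in mutant ones (24.2 CPM).

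Between genotypes, the levels over all retained cells lay within 2-fold of each other. *foxg1a* had 24.7 CPM in the sibling and 27.8 CPM in the mutant library, a ratio of 1.13 (1.02 to 1.25), and *bhlhe22* had 79.0 and 73.8 CPM, a ratio of 0.934 (0.881 to 0.989). *emx3* differed by less than counting error (6.02 and 5.64 CPM, 0.936, 0.756 to 1.16). *tbr1b* (12.7 and 10.6 CPM, 0.841, 0.723 to 0.977), *emx2* (35.4 and 27.5 CPM, 0.779, 0.711 to 0.853) and *lhx8a* (7.44 and 5.42 CPM, 0.727, 0.592 to 0.893) were lower, and *eomesa* was lowest (15.7 and 7.89 CPM, 0.504, 0.430 to 0.589). With all deposited barcodes the direction turned for *tbr1b* (1.13) and *bhlhe22* (1.07), and *emx3* was at 1.17. None of the 7 passed the 2-fold rule, against 1.13% of 13483 genes that were higher and 4.94% that were lower in the mutant library, and the median gene was at 0.915.

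In brain neurons *eomesa* went from 39.4 to 18.5 CPM, a ratio of 0.469 (0.395 to 0.556), and was the only one of the 7 genes past the 2-fold rule, against 3.68% of 9356 genes higher and 5.32% lower, with a median gene at 0.894. It had both fewer positive neurons in the mutant library (81 of 3064 and 59 of 3394) and fewer UMIs in each (mean 4.80 and 3.64). Without doublet removal the ratio was 0.503, and scaled to the median gene it was 0.525, so the call did not hold there. *lhx8a* went from 10.1 to 5.68 CPM (0.560, 0.404 to 0.772), *tbr1b* from 33.6 to 26.2 CPM (0.778, 0.663 to 0.911), *emx3* from 15.4 to 12.3 CPM (0.799, 0.631 to 1.01) and *emx2* from 60.4 to 41.9 CPM (0.694, 0.614 to 0.783). The *emx2* difference depended on a set of cells, and turned to 1.07 (0.914 to 1.25) when brain neurons with an amacrine-list UMI were left out. *foxg1a* (40.1 and 39.4 CPM, 0.982, 0.857 to 1.13) and *bhlhe22* (93.0 and 86.5 CPM, 0.930, 0.849 to 1.02) differed by less than counting error. The transmitter genes *slc17a6b* (0.499), *gad1b* (0.493) and *gad2* (0.488) were all about as low in the mutant library as *eomesa*. With 1 library each, genotype cannot be told apart from library.

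**Figure D5:**
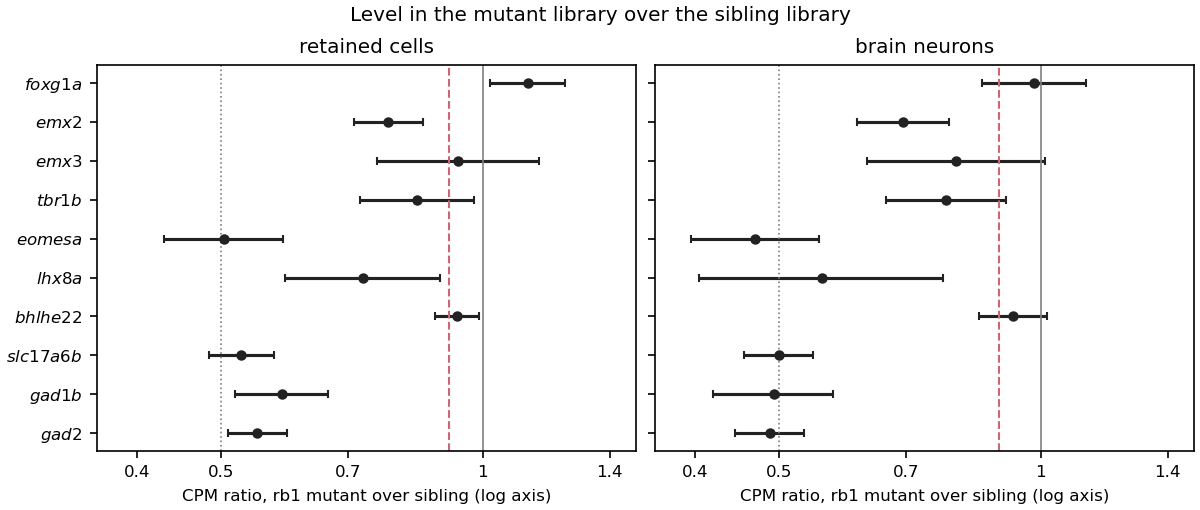
Points give the ratio of CPM in the *rb1* mutant library to the sibling library on a logarithmic axis, with exact 95% intervals, for the 7 genes and 3 transmitter genes in retained cells (left) and brain neurons (right); the dashed red line is the median gene and dotted lines mark 0.5-fold. In brain neurons *eomesa* (0.469) sits with *slc17a6b*, *gad1b* and *gad2*, and *foxg1a* (0.982) sits near 1.

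Other genes were compared in brain neurons from fixed lists whose names, pallial and subpallial, did not hold for every gene. Of the pallial list, *lhx9* and *lhx2b* are markers of the midbrain and thalamus gate. They were lower in the sibling neurod6 gate than in other brain neurons (0.626 and 0.436). *six3b* of the subpallial list was 10.1 times higher in the sibling tal1/gata gate and 1.41 times (0.822 to 2.28) in the dlx gate. The list medians therefore do not compare pallium with subpallium. Of the 10 genes in the pallial list, 8 had at least 100 UMIs. Only 1 passed the 2-fold rule, *neurod6a* (53.5 to 26.5 CPM, 0.495, 0.429 to 0.571), against the 5.32% of all genes that were lower. The median of the list was 0.786. *neurod6b* (80.9 and 70.7 CPM, 0.875) and *neurod2* (34.1 and 29.0 CPM, 0.849) did not pass. Of the 14 genes in the subpallial list 13 were in the data and 12 had enough UMIs. None passed, and their median was 0.983, with *dlx2a* at 1.12 and *dlx5a* at 0.714. The 3 cholinergic genes had a median of 0.687 with none past the rule.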

How the data were processed

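For each library the deposited values are raw counts of UMIs per gene and barcode, which the authors did not normalize. Reads were aligned to GRCz11 with Cell Ranger (5.1.0 per the processing notes, 5.0.0 per the file headers), and the study's methods name EmptyDrops and Seurat 3.1.1. The smallest barcode had 500 UMIs. Following those methods, a barcode was kept if it had 200 to 3000 genes, fewer than 20000 UMIs and less than 15% of mitochondrial counts (8150 sibling, 8511 mutant). In place of DoubletFinder, the top 7.5% by Scrublet score were taken as doublets and left out (scanpy 1.11.5, Python 3.11.15), 611 and 638. No clustering was used. Each cell took the first of 22 ordered marker gates it met, so a gate is a range of marker counts, not a discrete type; 221 sibling and 234 mutant brain neurons were 1 gene short of the neurod6 gate, 61 and 67 of the dlx gate, and 263 and 274 of the tal1/gata gate. CPM intervals are exact Poisson, ratios exact conditional binomial and shares Clopper-Pearson (scipy 1.17.1), and a count of 0 was given a limit of 3 counts. Backgrounds used genes with at least 100 UMIs in both libraries or sets together, or, for co-detection, at least 20 positive neurons. Named genes were the 7 members, the transmitter genes, 4 lists (1 of which is not reported here), *rb1*, the 5 genes most enriched in positive sibling neurons (detected in at least 20% of them) and the 2 with the closest gate profile, by Pearson correlation of log2(CPM + 1) over gates of at least 30 cells. The members and lists were chosen with earlier results of these data known. Alternatives were no doublet removal, all deposited barcodes, at least 500 genes, thinning to 1000 UMIs, 1 more marker in every gate and scaling to the median gene; 2 more were chosen after seeing the data (no epidermis gate; brain neurons with an amacrine-list UMI left out). The count procedure was tested on simulated data. The dense tables of the same counts were not used.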

Additional observations from a re-analysis of the deposited data

Results flagged for a closer look

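The change of *bhlhe22* between genotypes had opposite directions in different cell classes. Its level in the mutant library over the sibling library was 3.26 in progenitors with radial glia (22 and 92 UMIs, 2.03 to 5.45), against 0.749 in retinal cells (1010 and 1114 UMIs, 0.687 to 0.816) and 0.321 in non-neural cells (142 and 36 UMIs, 0.216 to 0.465). These differences between classes were not tested, since each class had 1 sample of each genotype. The retinal ratio stayed between 0.593 and 0.836 under all alternatives run. The progenitor ratio was 2.07 without doublet removal and 1.01 (0.740 to 1.37) with 1 more marker gene in every gate. The non-neural ratio turned to 9.32 (4 and 35 UMIs, 3.33 to 36.1) when the epidermis gate, which held 581 sibling cells, was not used.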

How the results depend on the processing

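No paired analysis was possible because each genotype had 1 library. With all deposited barcodes, the retained-cell ratios (mutant over sibling) were 1.29 for *foxg1a*, 0.905 for *emx2*, 1.17 for *emx3*, 0.663 for *eomesa*, and turned direction for *tbr1b* (1.13) and *bhlhe22* (1.07). Members with most UMIs in brain neurons fell from 5 to 3 in the mutant library, and members past the rule for *slc17a6b* there from 2 to 1, as with at least 500 genes (1). For the count of members with most UMIs in brain neurons, the share of all genes was not computed. After thinning to 1000 UMIs the retained ratios were 0.636 for *emx2*, 1.17 for *emx3* and 0.726 for *bhlhe22*, and those in brain neurons 1.13 for *foxg1a*, 0.558 for *emx2*, 1.06 for *emx3*, 0.394 for *lhx8a* and 0.785 for *bhlhe22*. Members past 2-fold then numbered 1 in retained cells and 2 in brain neurons, against 0 without doublet removal and 0 with median scaling. Median scaling put *bhlhe22* at 1.02 in retained cells and 1.04 in brain neurons. Leaving out brain neurons with an amacrine-list UMI gave 1.07 for *emx2* and 0.770 for *bhlhe22*, and 3 members with most UMIs in brain neurons in each library. Shares in brain neurons could only fall in that setting, since the cells left out stayed in the total. The cause of the other shifts was not tested. *eomesa* in brain neurons stayed between 0.437 and 0.525 under all alternatives. Of 78 values recomputed, 70 stayed within set limits with 1 more marker, 77 with at least 500 genes and 74 without doublet removal, against 42 after thinning. The limit was counting error, or a fixed factor for counts of members. The values of *lhx8a* in brain neurons rest on 16 and 10 positive cells, and the intervals of these shares overlapped (0.299% to 0.847% and 0.141% to 0.541%).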
